A study of Caenorhabditis elegans with 2 samples.

Results

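The genes skn-1, hsf-1, pqm-1, atfs-1 and xbp-1 encode 5 transcription factors through which the nematode Caenorhabditis elegans answers cellular stress. They were taken by name from the 46890 genes of the Ensembl annotation of the assembly WBcel235 (ce11), of which 19973 are protein-coding, by a rule that uses no measured value but was set with earlier results of these data known. Chromatin occupancy at them was read from 2 biological replicates of 1 group: whole hermaphrodites at the first larval stage (L1), 6 h after synchronization as starved L1 larvae following bleaching. The worms, strain OP528, carried the transgene wgIs528, a fosmid from which SNU-23 is expressed with a C-terminal tag of EGFP and 3xFLAG, together with unc-119(+) as a marker, in an unc-119(tm4063) background. Chromatin immunoprecipitation with an antibody against GFP was followed by sequencing (ChIP-seq). There is no untagged, mutant or stressed group, so the data show where the tagged protein was recovered and no change between conditions. The line is a single transgenic strain in which the tagged protein is added to the endogenous one, and whole larvae mix all tissues.

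SNU-23 is a protein of the U4/U6.U5 tri-snRNP, the particle that joins the spliceosome before it is activated. SKN-1 is the worm Nrf protein, which switches on glutathione synthesis and detoxification genes under oxidative stress. HSF-1 is the heat shock factor, the activator of chaperone genes. PQM-1 is a zinc finger protein that acts in opposition to the FOXO factor DAF-16 downstream of insulin signalling. ATFS-1 is a bZIP factor imported into healthy mitochondria that moves to the nucleus when import fails and starts the mitochondrial unfolded protein response. XBP-1 serves the unfolded protein response of the endoplasmic reticulum (ER). Its mRNA is cut by the kinase and RNase IRE-1 and rejoined by the tRNA ligase RTCB-1, outside the spliceosome.

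The DNA under the peaks of 3 of the genes is printed here because these stretches carry the positions on which the results turn. The sequence is that of the RefSeq genome of WBcel235 (ce11), read on the strand of the gene, and the 21 bases in capitals are centred on the authors' peak summit. For atfs-1 and xbp-1 the 150 bases directly upstream of the annotated 5′ end of the gene are given. For skn-1, 121 bases around each of its 3 intronic summits are given, named by the distance of the summit into the gene.
atfs-1, chrV:14193513-14193662, plus strand: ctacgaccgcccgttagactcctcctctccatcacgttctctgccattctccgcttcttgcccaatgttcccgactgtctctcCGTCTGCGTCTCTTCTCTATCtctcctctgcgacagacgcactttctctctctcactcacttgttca
xbp-1, chrIII:4193659-4193808, plus strand: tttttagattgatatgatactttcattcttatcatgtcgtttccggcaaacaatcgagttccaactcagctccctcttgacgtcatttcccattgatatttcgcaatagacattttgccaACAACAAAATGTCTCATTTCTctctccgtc
skn-1, summit at 2895 bp, chrIV:5657429-5657549, minus strand: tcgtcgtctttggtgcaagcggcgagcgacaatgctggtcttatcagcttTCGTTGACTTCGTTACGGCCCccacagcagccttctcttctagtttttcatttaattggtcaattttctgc
skn-1, summit at 3097 bp, chrIV:5657227-5657347, minus strand: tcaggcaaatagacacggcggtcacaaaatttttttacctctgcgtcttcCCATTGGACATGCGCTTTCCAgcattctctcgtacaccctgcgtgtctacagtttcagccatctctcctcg
skn-1, summit at 4261 bp, chrIV:5656063-5656183, minus strand: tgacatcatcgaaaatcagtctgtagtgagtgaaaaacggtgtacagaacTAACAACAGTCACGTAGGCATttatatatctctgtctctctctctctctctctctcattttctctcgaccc

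The deposited lists hold 30000 peak candidates for each replicate, 30000 for the pooled replicates and a final list of 6675 peaks. The final peaks passed a threshold on the irreproducible discovery rate, abbreviated IDR, which scores how well ranked peak lists agree. Each peak has a signal, the authors' own value relative to a control, whose median was 11.5 in replicate 1, 12.8 in replicate 2 and 158 in the final list. The lowest signal of a final peak was 71.7 and the highest was 2804. Ranks below count from the strongest peak of a list. At the 6569 final peaks that held a peak of both replicates, the median ratio of replicate 2 to replicate 1 was 1.15. This is a log2 ratio of 0.20, with an SD of 0.42 across peaks. The SD, which describes the ratio between replicates at final peaks, is called the replicate error below. Read numbers were not analysed here, so depth is unknown, and the intervals given for shares cover counting error only.

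Of the 5 genes, atfs-1 and xbp-1 had a final summit within 500 bp of the annotated 5′ end, skn-1 and hsf-1 had final summits elsewhere between 2 kb upstream and the 3′ end of the gene, and pqm-1 had no final peak at all. A gene with a final summit within 500 bp of its 5′ end is called marked below. Among all coding genes 3355 were marked, which is 16.8% (exact 95% interval 16.3 to 17.3). A final summit anywhere from 2 kb upstream to the 3′ end was found in 5901 coding genes, or 29.5%, against 4 of the 5 genes. Long genes had one more often: the share was 49.6% (410 of 827) among coding genes of 8 to 12 kb, the range of skn-1 and hsf-1, and 28.4% (2635 of 9291) among those of 1.5 to 4.5 kb, which holds pqm-1, atfs-1 and xbp-1. With the strongest 6675 candidates of replicate 1 alone or of replicate 2 alone, the same 2 genes were marked. A set of 5 genes is too small for its share to be set apart from these backgrounds, and no test was made.

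By the highest pooled signal between 2 kb upstream and the 3′ end, the order was xbp-1 at 562.6, skn-1 at 561.9, atfs-1 at 383.7, hsf-1 at 146.3 and pqm-1 at 31.8. The values of xbp-1 and skn-1 could not be separated: their ratio was 1.02 in replicate 1 and 1.01 in replicate 2. The signal of skn-1 was above that of atfs-1 by a ratio of 1.64 in replicate 1 and 1.31 in replicate 2, a gap similar in size to the replicate error. That of atfs-1 over hsf-1 was 2.45 and 2.87 in replicates 1 and 2, larger than the error. That of hsf-1 over pqm-1 was 7.22 and 3.32, so the direction held in both replicates. The error comes from final peaks and does not cover the weak pqm-1 candidate, so this step was not set against it.

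**Figure D1:**
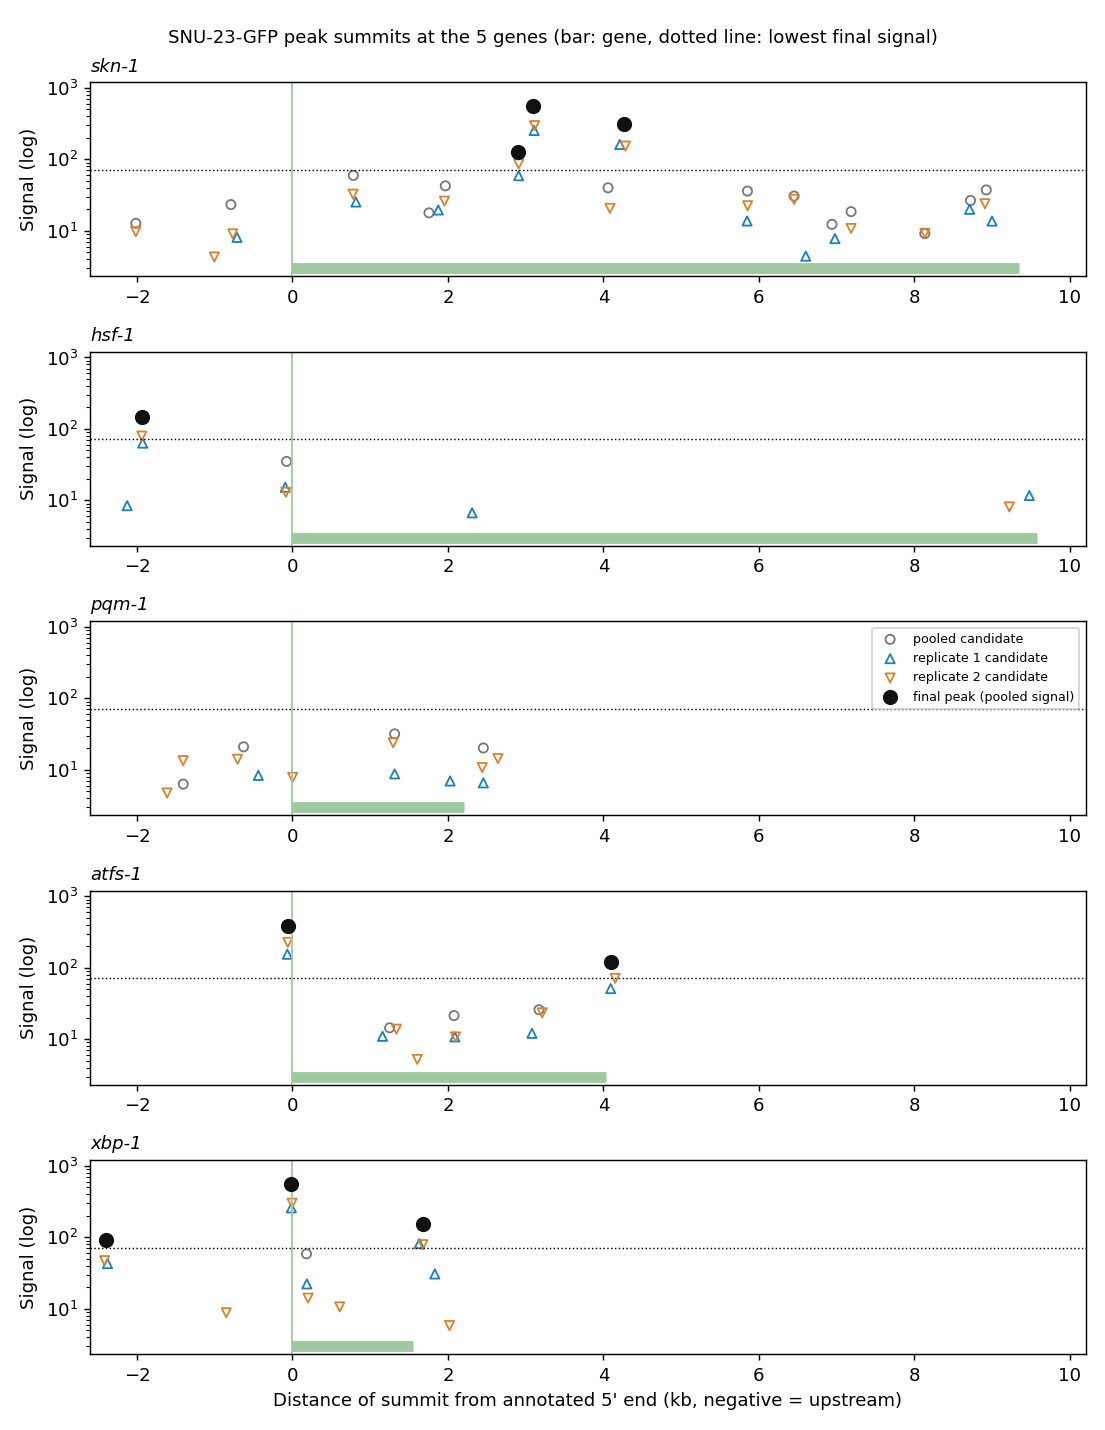
Positions (horizontal axis, kb from the annotated 5′ end) and signals (vertical axis, log scale) of all peak candidates and final peaks at the 5 genes, with the gene drawn as a green bar and the lowest signal of the final list as a dotted line. The filled final peaks sit at the 5′ end in atfs-1 and xbp-1, inside the gene in skn-1 and 1932 bp upstream in hsf-1, and pqm-1 has none; those past the 3′ end of atfs-1 and xbp-1 and the one at −2401 bp of xbp-1 lie outside the region counted.

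The xbp-1 gene (WBGene00006959, chrIII:4193809-4195358, plus strand) is 1550 bp long and carried its peak directly at the start. The final peak spanned chrIII:4193600-4194057 with its summit 20 bp upstream of the 5′ end, so its interval ran from the promoter into the gene. Its signal was 562.6 in the pooled list (rank 467), 258.4 in replicate 1 (rank 486) and 299.7 in replicate 2 (rank 471). Both replicates placed it high, higher than 93.0% of final peaks in the pooled list, and the replicate ratio of 1.16 was that of the typical peak. Their summits lay 9 bp apart, against a median of 15 bp over all final peaks.

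In the order of marked coding genes by the strongest signal at the 5′ end, xbp-1 stood at 374 of 3355, higher than 88.9% of them; the median of marked genes was 209.7. Next above it was a summit with a signal of 563.3 shared by ift-43, a gene of intraflagellar transport, and mdt-26, a Mediator subunit gene. Next below was a summit with a signal of 562.4 shared by nol-58, the gene of a core protein of box C/D small nucleolar ribonucleoproteins, and zip-4. In replicate 1 the summits of ift-43, xbp-1 and nol-58 had 275.3, 258.4 and 257.9, and in replicate 2 they had 296.1, 299.7 and 307.9. The order thus differed between replicates, among genes picked for adjacent pooled signals. In the pooled list the same peak interval held a weaker summit 181 bp into xbp-1, with a signal of 58.6. That summit did not reach the final list. The upstream neighbour dnj-16, which encodes a J-domain co-chaperone, ends 379 bp before xbp-1 on the same strand, and no other gene had its 5′ end within 500 bp of the xbp-1 summit.

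The atfs-1 gene (WBGene00013878, chrV:14193663-14197700, plus strand) is 4038 bp long, and its peak also lay at the start. The final peak spanned chrV:14193438-14193743, with the summit 57 bp upstream of the 5′ end. Its signal was 383.7 in the pooled list (rank 963), 154.9 in replicate 1 (rank 1277) and 227.2 in replicate 2 (rank 813). The peak was stronger than 85.6% of final peaks, and the replicate ratio of 1.47 was above the typical one by 0.83 SD; the summits of the replicates lay 6 bp apart. Among marked coding genes it stood at 753 of 3355, higher than 77.6%.

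The genes closest to atfs-1 in that order were dhhc-9, which encodes a palmitoyltransferase, with a pooled signal of 385.1, and B0348.10 with 383.6. Their values were 171.4 and 160.1 in replicate 1 and 216.6 and 222.8 in replicate 2. They were picked as the nearest in pooled signal, so their closeness to atfs-1 is no result. The upstream gene ints-2, which encodes an Integrator subunit, ends 1501 bp before atfs-1. The call at atfs-1 rests on the annotation: RefSeq starts the gene 783 bp further downstream, at 14194446, where several Ensembl transcripts such as ZC376.7a.1 also start. From that start the summit is 840 bp upstream and atfs-1 is not marked, which leaves xbp-1 as the 1 marked gene of the 5, whereas 3335 coding genes were marked on RefSeq 5′ ends. This alternative was chosen after seeing the data.

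The skn-1 gene (WBGene00004804, chrIV:5651039-5660384, minus strand) is 9346 bp long and held 3 final summits, all in the long intron of its longest transcript, T19E7.2a. At least 3 final summits between 2 kb upstream and the 3′ end were found in 371 coding genes, or 1.86%. The share rose with length: it was 64 of 827 coding genes of 8 to 12 kb, or 7.74%. The strongest summit lay 3097 bp into the gene, in a peak at chrIV:5656990-5657666. Its signal was 561.9 in the pooled list (rank 470), 253.9 in replicate 1 (rank 511) and 296.8 in replicate 2 (rank 478).

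Another summit in the same peak interval, 202 bp away and 2895 bp into the gene, had a signal of 126.6 in the pooled list (rank 4139), 59.1 in replicate 1 and 86.3 in replicate 2. The remaining peak, at chrIV:5655954-5656309 with its summit 4261 bp into the gene, had 308.3 in the pooled list (rank 1398), 161.5 in replicate 1 and 153.4 in replicate 2. The strongest summit was thus higher than 93.0% of final peaks, the last 79.1% and the middle one 38.0%. The order of the 3 was the same in both replicates, and their replicate ratios, 1.17, 1.46 and 0.95, lay within 1 SD of the typical peak. The summit of the last moved by 73 bp between replicates, past the 90th percentile of 52 bp over all final peaks.

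None of the 3 summits lay within 500 bp of an annotated coding 5′ end. The summit at 4261 bp lay 518 bp upstream of the start of transcript T19E7.2c, just beyond the 500 bp limit. The summits of the double peak lay beside a pair of short non-coding RNA genes inside the intron: the stronger was 31 bp upstream of T19E7.26 and 278 bp past the start of T19E7.27, and the weaker was 171 bp past the start of T19E7.26 and 76 bp past that of T19E7.27. At the 5′ end of the gene itself no candidate was found within 500 bp in any list. The nearest pooled candidates were at 783 bp into the gene, with a signal of 59.7, and 792 bp upstream, with a signal of 23.3, both below the lowest final signal. Near the start of T19E7.2b, another transcript that begins within the gene, candidates at 30 bp and −216 bp had signals of 18.5 and 12.3, and a candidate 389 bp past the start of the shorter transcript T19E7.2d had 9.12.

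Candidates below the final threshold were dense along skn-1. The pooled list had 15 candidates from 2 kb upstream to the 3′ end, replicate 1 had 11 and replicate 2 had 13. This is 1.32 pooled candidates per kb, more than in 98.1% of coding genes, whose median was 0 and upper quartile 0.46. As many as 15 or more were found in 174 of the 19973 coding genes, a count not matched for gene length. The pooled list includes background as input to IDR, and the weakest skn-1 candidate in it had a signal of 9.12. The nested gene clec-178, which encodes a C-type lectin, shares part of this region, and bec-1, the worm Beclin of autophagy, ends 756 bp upstream.

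The hsf-1 gene (WBGene00002004, chrI:11953507-11963085, minus strand) is 9579 bp long, similar in length to skn-1, and had 1 final summit, far upstream. The peak at chrI:11964819-11965214 had its summit 1932 bp before the 5′ end, close to the limit of 2 kb. Its signal was 146.3 in the pooled list (rank 3616), 63.1 in replicate 1 (rank 3956) and 79.2 in replicate 2 (rank 3607). It stood near the middle of the final list, higher than 45.8% of it. RefSeq starts hsf-1 1101 bp further downstream, as does the Ensembl transcript Y53C10A.12.1. From there the summit is 3033 bp upstream, outside the region counted, so that 3 of the 5 genes rather than 4 had a final summit in it.

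At the annotated 5′ end of hsf-1 there was a weak candidate, 76 bp upstream in the pooled list, with a signal of 35.0 (rank 10730). Replicate 1 had it at 93 bp upstream with 15.2 (rank 12275) and replicate 2 at 85 bp upstream with 12.9 (rank 14887). All of these lay below the final list. Pooled candidates within 500 bp of the 5′ end were found at 6599 coding genes, or 33%, and by that wider call hsf-1 joined atfs-1 and xbp-1. Candidates along hsf-1 were fewer than along skn-1: 2 in the pooled list, 4 in replicate 1 and 3 in replicate 2. The pooled density was 0.17 per kb, still more than in 55.6% of coding genes. The nearest coding gene upstream, Y53C10A.15, is 8093 bp away, and hsf-1 has the coding 5′ end nearest to its peak.

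The pqm-1 gene (WBGene00004096, chrII:11150391-11152595, minus strand) is 2205 bp long and had no final peak. Its strongest pooled candidate lay in an intron, 1314 bp into the gene, with a signal of 31.8 (rank 11410). In replicate 1 it had 8.74 (rank 18446), and in replicate 2, at 1295 bp, 23.9 (rank 9618). The replicate ratio was 2.73, a log2 ratio of 1.45, beside a median log2 ratio of 0.20 at final peaks. Final peaks had passed the IDR threshold, which this candidate had not. The spread among candidates this weak was not computed, so whether this ratio is unusual is unknown.

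Upstream of pqm-1 the pooled list held candidates at −629 bp with a signal of 20.9 and at −1404 bp with 6.28. Replicate 1 had 8.34 at −439 bp, and replicate 2 had 14.0 at −707 bp and 13.4 near the farther site. Within 500 bp of the 5′ end each replicate had 1 weak candidate, and the pooled list had none. Among the 9583 coding genes with any pooled candidate from 2 kb upstream to the 3′ end, 22.7% had a lower best signal than pqm-1. Of coding genes of 1.5 to 4.5 kb, the range that holds pqm-1, 1611 of 9291 or 17.3% were marked.

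**Figure D2:**
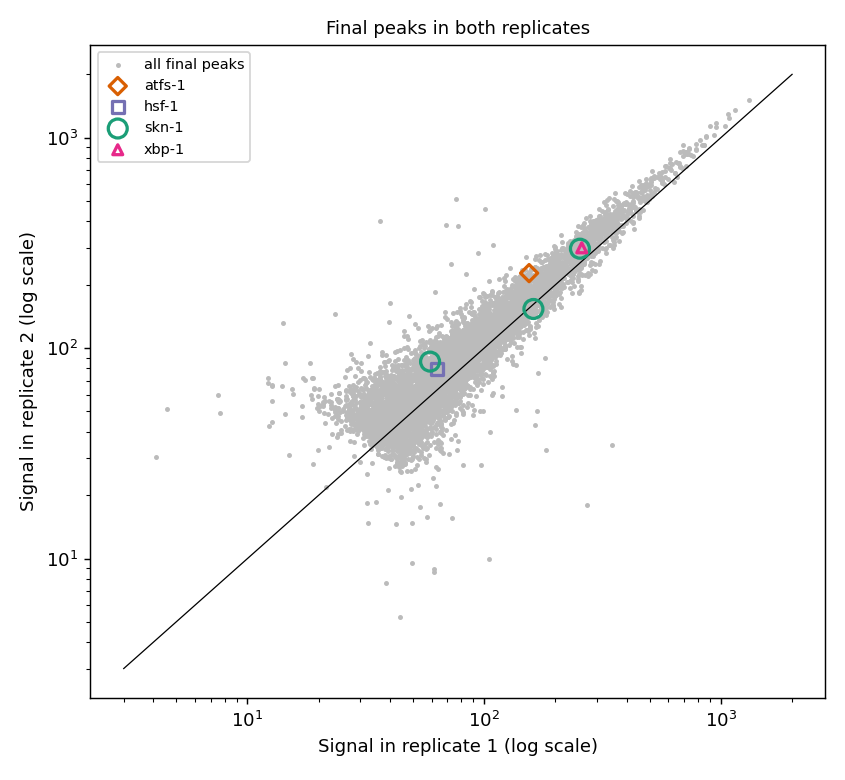
Signal of each final peak in replicate 1 (horizontal axis, log scale) against replicate 2 (vertical axis, log scale), with all final peaks in grey, the peaks of skn-1, hsf-1, atfs-1 and xbp-1 in colour and a line at equality. The coloured peaks lie within the cloud of all final peaks; the strongest skn-1 peak, at 253.9 and 296.8, and the xbp-1 peak, at 258.4 and 299.7, overlie each other, and pqm-1 has no peak to plot.

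Short motifs were searched on both strands in the 151 bases centred on each final summit, and each share below is that of all 6675 final peaks. GAANNTTC, a pair of heat shock element units, was in 5.53% of them and in none of the 6 windows of these genes. TGTCAT, a form of the SKN-1 core, was in 8.66%, and in the windows of hsf-1 and of the skn-1 summit at 4261 bp. TGATAAG, the element associated with PQM-1, was in 3.55%, and in the windows of atfs-1, where it lay 61 bp from the summit, and of the skn-1 summit at 2895 bp, where it lay 18 bp away and can be read as cttatca in the sequence above. Another match in the printed xbp-1 sequence, 100 bp upstream of the summit, lies outside the window. GTAAACA, bound by DAF-16, was in 3.61%, TGACGTG, a core of the unfolded protein response element, in 2.44%, and CACGTG, an E-box, in 8.31%. These were in none of the 6 windows. The G and C content of the windows was 50.3% in xbp-1, 49.01% in atfs-1, 38.4% in hsf-1 and 46.4%, 47.7% and 43.7% at the skn-1 summits in the order printed, beside a median of 43.7% and quartiles of 39.1% and 49.01% over all final peaks. That of xbp-1 lay above the upper quartile and that of hsf-1 below the lower one.

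Partners and targets of the factors were read in the same way, in 6 lists with 83 distinct genes besides the 5. Of these, 34 were marked. Among 12 genes of the SKN-1 pathway 4 were marked, or 33.3% (exact 95% interval 9.92 to 65.1) beside the 16.8% of all coding genes. The highest were wdr-23, the adaptor through which SKN-1 is degraded, with a signal of 704.8, the glutathione synthetase gene gss-1 with 268.8 and the ubiquitin ligase adaptor gene skr-1 with 176.4. The gss-1 summit is shared with the 5′ end of chch-3. The repressor gene wdr-23 was thus marked at its start, where skn-1 itself had no candidate. The remaining marked gene of the list was prdx-2, with 119.2. The SKN-1 targets gcs-1 and gst-4, picked after their values were seen, were not marked. Within 500 bp of the 5′ end gst-4 had a weak pooled candidate of 13.2, and gcs-1 had none.

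Of 15 genes of the HSF-1 pathway 7 were marked, or 46.7% (21.3 to 73.4). The highest were 3 chaperone genes: the J-domain gene dnj-13 with a signal of 1535, the Hsc70 gene hsp-1 with 1509 and hsp-110 with 1379, the last with a summit shared with the 5′ end of the proteasome gene rpn-3. Their signals were over that of any peak at hsf-1 (146.3), but they were picked as the highest of the list. The gene hsp-70 of the same list, named after its values were seen, was not marked. Its best pooled candidate within 500 bp of the 5′ end had a signal of 27.7. A single summit with a signal of 315.2 lies between the divergent small heat shock genes hsp-16.2 and hsp-16.41 and was counted for both. The near-identical copies named hsp-16.1 and hsp-16.48 were not marked, and reads from such copies may not be placed reliably.

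Of 14 genes of insulin signalling around DAF-16 and PQM-1 4 were marked, or 28.6% (8.39 to 58.1): the 14-3-3 gene par-5 with a signal of 358.1, daf-16 with 247.0, smk-1, which encodes a cofactor of DAF-16, with 125.4, and hcf-1. The summit of par-5 is shared with the 5′ end of M117.3 and that of hcf-1 with the 5′ end of swd-2.2. Of 12 genes of the mitochondrial unfolded protein response 6 were marked, or 50% (21.1 to 78.9). The highest were the mitochondrial Hsp70 gene hsp-6 with 517.6, the import channel gene timm-23 with 433.8 and the translation kinase gene gcn-2 with 217.4. The summits of hsp-6 and gcn-2 are shared with the 5′ ends of C37H5.5 and Y81G3A.1.

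Of 14 genes of the ER unfolded protein response 8 were marked, or 57.1% (28.9 to 82.3), the largest share of the 6 lists. The highest were hsp-3, a BiP gene, with a signal of 1080, the calreticulin gene crt-1 with 684.7 and the transcription factor gene atf-6 with 491.4. The gene hsp-4 of the same list, named after its values were seen, was not marked. Its best pooled candidate within 500 bp of the 5′ end had a signal of 54.9. Of the genes whose products process the xbp-1 mRNA, ire-1 was marked, with a signal of 257.1 and a summit 172 bp upstream of its 5′ end. The gene rtcb-1 had no candidate within 500 bp of its 5′ end but a final summit 725 bp upstream, with a signal of 195.6. This pair was picked after its values were seen. Of 19 other stress transcription factor genes 7 were marked, or 36.8% (16.3 to 61.6), led by atf-6 with 491.4, the nuclear receptor gene nhr-49 with 466.0 and atf-4 with 385.1, whose summit is shared with the 5′ end of WBGene00303075. From 2 kb upstream to the 3′ end, beside 29.5% of all coding genes, a final summit was found in 41.7% of the SKN-1 list, 60% of the HSF-1 list, 71.4% of the insulin list, 66.7% of the mitochondrial list, 78.6% of the ER list and 73.7% of the other factors. The median gene length of these lists ran from 1.14 kb in the HSF-1 list to 5.50 kb in the mitochondrial one, and the share of coding genes with such a summit was higher among long genes. The intervals of the lists are wide and overlap each other, and the lists share genes (daf-16, atf-6 and dve-1 each stand in 2), so no list was set apart from another.

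**Figure D3:**
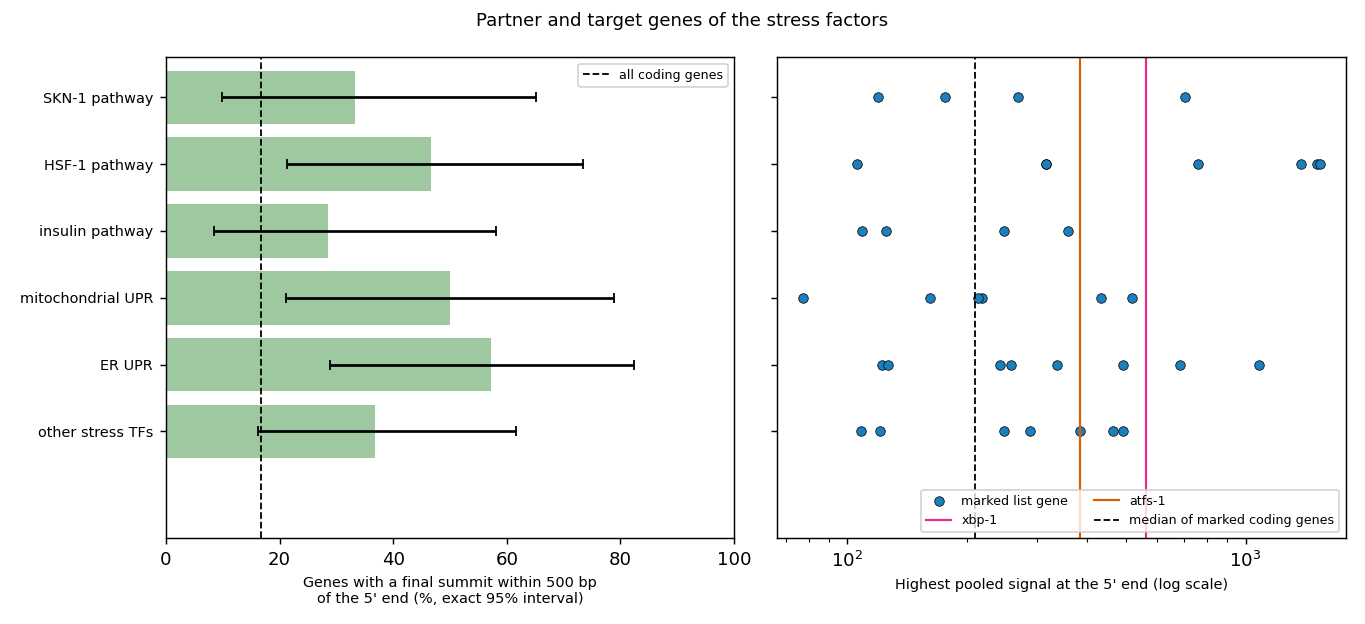
Left, the share of each pathway list with a final summit within 500 bp of the 5′ end (horizontal axis, percent; bars start at 0, whiskers are exact 95% intervals), with the 16.8% of all coding genes dashed. Right, the highest pooled signal at the 5′ end of each marked gene (horizontal axis, log scale), with lines at atfs-1 (383.7), xbp-1 (562.6) and the median of marked coding genes (209.7); the HSF-1 list holds the strongest points, up to 1535.

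The gene snu-23 itself had a final summit 71 bp upstream of its 5′ end. Its signal was 119.2 in the pooled list, 55.4 in replicate 1 and 62.1 in replicate 2. A stronger summit lay 1080 bp upstream, with 270.0, 122.4 and 148.4 in the same lists. The gene unc-119 had none within 500 bp of its 5′ end and final summits 770 and 2660 bp into the gene, with pooled signals of 137.0 and 132.8. Both genes are carried by the transgene, so reads from it and from the native loci cannot be told apart. None of these values tests the tag, which a peak list does not show.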

How the data were processed

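The 2 replicates were analysed through peak lists on ce11. Per the file headers and descriptions deposited by the authors, candidates were called on each alignment with a control and include background as input to IDR; the peak caller and aligner are not given in the sources. The signal per peak is the authors' own value and served to rank peaks inside a list and to compare peaks matched between replicates. The deposited −log10 q-value had a ceiling of 4.38 in the pooled list, shared by many peaks, and was used for no ranking. Lists on ce10 were not used, since no annotation of that build was at hand. Columns of per-sample values left unused: 0.

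Gene positions came from Ensembl release 115 and sequences from RefSeq, both WBcel235; all 5 genes were found by symbol, and 4 listed symbols of the pathway lists (daf-21, hsp-16.11, atf-5, hsf-2) were not. A gene was called marked with a summit within 500 bp of its 5′ end. Shares have Clopper-Pearson intervals (95%), which treat neighbouring genes as independent. The final list is labelled as the optimal IDR list, derived from both replicates. Measurements were therefore repeated on the strongest 6675 peaks of each replicate. Counting was tested on simulated peaks. The genes, lists and measures were chosen with earlier results of these data known. Named are the 5 genes, genes with a 5′ end within 500 bp of their final summits, the 3 marked genes of each list with the highest signal, the neighbours in signal order, and snu-23 and unc-119; others were named after their values were seen. Python 3.11.15, numpy 2.4.6, pandas 2.3.3, scipy 1.17.1 and matplotlib 3.10.9 were used.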

Additional observations from a re-analysis of the deposited data

How the results depend on the processing

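The count of 2 marked genes of the 5 was the same with windows of 250 or 1000 bp, with any transcript start, with the nearest coding 5′ end alone, with overlap of the interval and with each replicate alone (2 to 2). It was 4 when summits from 2 kb upstream to the 3′ end counted, 3 with all pooled candidates and 1 on RefSeq 5′ ends, an alternative chosen after seeing the data. For all coding genes, 3355 by the main call, the count was 5901 with that longer region, 2151 with the strongest 3337 final peaks, 6599 with all pooled candidates, and 3387 to 3412 with 1 replicate left out. With windows of 250 and 1000 bp it was 2268 and 4279, and with the nearest coding 5′ end alone 2732. For the listed genes, 34 by the main call, it was 54 with the longer region, 57 with all pooled candidates, and 33 to 35 with 1 replicate left out. It was 23 and 42 with windows of 250 and 1000 bp. With the strongest 3337 final peaks it was 25, and with the nearest coding 5′ end alone 27. The rank of the strongest peak ranged over the replicates from 478 to 511 for skn-1, 3607 to 3956 for hsf-1, 9618 to 18446 for pqm-1, 813 to 1277 for atfs-1 and 471 to 486 for xbp-1. No paired analysis was possible because there is 1 group. Depth is unknown, so a missing peak means that none passed the authors' threshold at this depth and not that SNU-23 is absent.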

Other observations

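Final peaks also lay just outside the region counted. Past the 3′ end of atfs-1, a peak with its summit at 14197757, 57 bp beyond the gene, had a signal of 120.0 in the pooled list (rank 4373), 51.1 in replicate 1 and 71.1 in replicate 2. Past the 3′ end of xbp-1, a peak with its summit 1683 bp from the 5′ end had 154.1 (rank 3428), 81.6 and 78.8 in the same lists. Both marked genes thus had a final peak at each end, and the one at the start was the stronger in each replicate. Whether other genes start near the peaks past the 3′ ends was not looked up. A final summit within 500 bp beyond the 3′ end was found at 972 coding genes (4.87%) and at 327 of the 3355 marked ones (9.75%). Another final peak, 2401 bp upstream of xbp-1 and inside dnj-16, had a signal of 91.0 (rank 5547).

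The chaperonin gene hsp-60, a target of ATFS-1, was not marked, with a best pooled candidate of 42.4 within 500 bp of its 5′ end. It had a strong final summit 598 bp upstream, with a pooled signal of 1406.5, within 500 bp of the 5′ end of Y22D7AL.10. Along daf-16, the strongest summit of the gene lay 19318 bp inside it. Both were chosen after their values were seen.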
